A study of Mus musculus with 6 samples.

Results

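The expressed Zfp zinc finger genes of Neuro2a cells, a mouse neuroblastoma line, were compared between cells given D-serine and cells given vehicle. Members were chosen by name and by their raw counts: they are the genes of the deposited table whose symbol is Zfp followed by 3 digits and whose raw counts, summed over the 6 libraries, reached 600. The table listed 24391 genes, of which 288 had such a symbol and 236 reached the minimum. Of the 52 that did not, 13 had no count in any library. The closest symbols outside were Zfp551 with 568 summed counts, Zfp185 with 544 and Zfp459 with 505, and the closest inside were Zfp595 with 636, Zfp433 with 645 and Zfp473 with 665. All 236 members also passed the filter on low counts used for the test, so none was lost there.

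The control group held 3 libraries of Neuro2a cells given vehicle, and the D-serine group held 3 libraries of the same line given 5 mM D-serine, the mirror-image form of L-serine. Both groups were kept for 18 h in a medium that the labels call D-MEM(-SG), to which 10% FBS, fetal bovine serum, was added. Poly(A) RNA was sequenced, and total counts lay between 32518483 and 40024265 per library. The labels number the libraries but do not say that they came from separate cultures, so p-values measure the spread between these libraries, which may be technical. All cells belong to 1 tumour-derived line, and in bulk RNA fewer cells of a kind and less RNA per cell cannot be told apart. Of 18 markers of neuroblastoma and sympathetic neurons, 15 had a mean of at least 1 CPM (counts scaled to library size), and their summed level was 2554 to 2642 CPM in control and 2702 to 2873 CPM in D-serine libraries. Summed microglial and leukocyte markers stayed under 0.775 CPM and summed astrocyte markers at or under 0.695 CPM in every library. Summed fibroblast markers lay between 4.6 and 6.9 CPM and endothelial markers between 3.6 and 4.7 CPM. Schwann and oligodendrocyte markers summed to between 15.1 and 16.7 CPM. Aqp4, Col3a1 and Kdr were at 0, while Mbp had a mean of 13.2 CPM, Pdgfra 4.93 CPM and Pecam1 3.50 CPM.

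Zfp is the mouse symbol stem for proteins with zinc fingers, most of them of the C2H2 kind, in which a pair of cysteines and a pair of histidines hold a zinc ion and a short helix reads DNA. Many C2H2 proteins carry a KRAB domain at the N-terminus, which recruits the corepressor Trim28 and, through it, the histone methyltransferase Setdb1. These KRAB proteins are known for silencing transposable elements and lie in the genome in clusters that arose by repeated duplication. Other members act without KRAB, as transcription factors, chromatin subunits or RNA-binding and ribosome-associated proteins.

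Coding sequences were found for 235 members in GENCODE M21 (GRCm38), and the longest translation of each held between 0 and 36 C2H2 fingers, with a median of 10. To show the repeated unit, 1 finger with the linker that joins it to the next is given for 6 members whose levels are described below. Capitals mark the codons of the pair of cysteines and the pair of histidines. The units come from coding exons, exon 7 in Zfp316 and exon 4 in the others, and span 84 bases each at chr13:67317295-67317378 (minus strand) for Zfp595, chr13:67541895-67541978 (minus) for Zfp748, chr8:71932494-71932577 (plus) for Zfp617, chr8:69707301-69707384 (minus) for Zfp869, chr5:143255075-143255158 (minus) for Zfp316 and chr15:76854205-76854288 (minus) for Zfp251, all in GRCm38.
Zfp595: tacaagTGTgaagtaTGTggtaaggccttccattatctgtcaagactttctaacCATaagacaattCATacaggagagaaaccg
Zfp748: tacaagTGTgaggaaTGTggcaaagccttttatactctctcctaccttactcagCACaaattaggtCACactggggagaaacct
Zfp617: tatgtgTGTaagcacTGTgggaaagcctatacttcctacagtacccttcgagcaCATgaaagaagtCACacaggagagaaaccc
Zfp869: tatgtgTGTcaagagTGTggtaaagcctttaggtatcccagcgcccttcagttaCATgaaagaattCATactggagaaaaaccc
Zfp316: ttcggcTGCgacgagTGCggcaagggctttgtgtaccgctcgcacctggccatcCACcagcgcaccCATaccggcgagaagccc
Zfp251: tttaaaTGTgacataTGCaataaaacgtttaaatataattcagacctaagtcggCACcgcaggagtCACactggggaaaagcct
Each unit is the first in its protein to match a pattern that fixed the linker and the spacing of the zinc-holding codons. Their equal spacing and length were thus set by the choice, and fingers with other spacing were not printed. The bases between these codons differ. Identity between pairs of these units ran from 48.8% (Zfp617 with Zfp316 and with Zfp251) to 73.8% (Zfp617 with Zfp869). Over whole transcripts, 42 members had at least 5% and 18 at least 20% of their 50-base words in a transcript of another gene, and 96 had none. Whether the shared words lie in fingers was not tested. How reads that map to several places were counted is not given in the sources used here, so counts of the 42 are uncertain.

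The lowest mean was 2.82 CPM and the highest 289 CPM, with a median of 22.7 CPM. The 4 highest by CPM were Zfp330, a nucleolar protein, with 289, Zfp106, an RNA-binding protein, with 231, Zfp664 with 208 and Zfp207, a spindle and spliceosome-associated protein, with 204. Per kilobase of exon, Zfp330 was first with 176 CPM, followed by Zfp622, a factor of late large-subunit ribosome assembly, with 71.6, Zfp146 with 64.3 and Zfp207 with 54.9. None of these passed the test between groups, with adjusted p-values from 0.11 in Zfp664 to 0.98 in Zfp146 (edgeR quasi-likelihood test, Benjamini-Hochberg over all tested genes). Members held 0.972%, 0.949% and 0.923% of all counts in control libraries 1 to 3 and 0.932%, 0.987% and 0.978% in D-serine libraries 1 to 3. These shares overlapped between the groups.

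With D-serine, 20 members rose and 4 fell, which is 24 members or 10.2%, beside 9.74% of the 13366 tested genes called in either direction. Among all tested genes 4.84% rose and 4.9% fell. Among 4400 other tested genes with length and level between the 10th and 90th percentiles of members, 10.5% were called, 5.55% higher and 4.95% lower. The share of members called was thus near the background, and the direction was mostly upward. The log2 fold changes (D-serine minus control) of the 24 were between 0.17 and 0.67 in size with a median of 0.26, and no member changed by a log2 of 1 or more. Over all 236 members the median log2 fold change was 0.060, with 149 above 0 and 87 below, beside 0.0053 over all tested genes and -0.0041 over those of like length and level. Libraries of the groups did not overlap for 62 members that were higher and 27 that were lower, beside 16.2% and 16.6% of all tested genes (32.9% in either direction). With each library's trend on gene length removed, 27 members rose and 14 fell (17.4% called), beside 701 and 1417 of all tested genes (15.8%). With that trend recentred so that the scaling was kept, a change made after the first result was seen, 41 members rose and 6 fell (19.9%), beside 1023 and 1020 of all tested genes (15.3%). DESeq2 gave 20 and 7 members. The number of calls rested on single libraries. It was 0 without control 1, 1 without control 2, 4 without control 3 and 2 without D-serine 3, with the edgeR test, where 56 members had an unadjusted p under 0.05 without control 1. Calls over all tested genes dropped as well, from 1302 to 125, 68, 453 and 291 in the same order of fits. No other tool was run on 5 libraries.

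**Figure D1:**
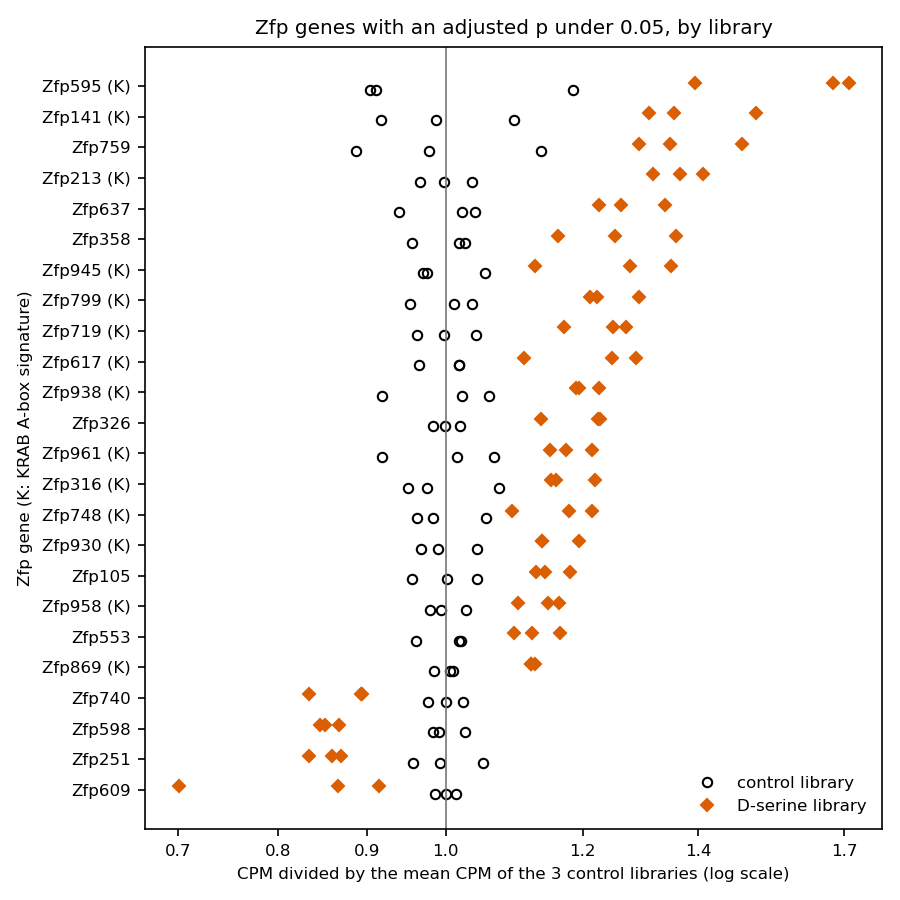
Each row is 1 of the 24 Zfp genes with an adjusted p under 0.05, and each point is 1 library's CPM divided by the mean of the 3 control libraries, on a log axis (open circles control, diamonds D-serine). The diamonds of 20 genes lie to the right of all circles and those of 4 genes to the left.

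The largest change among the 24 was that of Zfp595, a KRAB gene at low level. It had 1.98, 1.97 and 2.58 CPM in control and 3.03, 3.64 and 3.72 CPM in D-serine libraries, a log2 fold change of 0.67 ± 0.18 (SE, n = 3 libraries a group) with an adjusted p of 0.040 (edgeR). Zfp141 had 8.0, 9.54 and 8.60 CPM against 11.8, 11.4 and 13.2, a log2 fold change of 0.48 ± 0.10 (adjusted p = 0.015). In both genes every D-serine library was above every control library, and 14.4% of the 50-base words of Zfp141 were shared with another gene.

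By p-value, Zfp358 and Zfp326 came first among the members that rose. Zfp358 went from 38.2, 41.1 and 40.8 CPM to 54.4, 46.5 and 50.2, a log2 fold change of 0.33 ± 0.064 (adjusted p = 0.013). Zfp326, an RNA-binding protein of a complex that links transcript elongation to splicing, went from 64.8, 63.5 and 62.5 CPM to 77.9, 72.2 and 78.0, a log2 fold change of 0.26 ± 0.050 (adjusted p = 0.013). Neither had a KRAB signature or shared words, and neither lies in a cluster of members.

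Of the other members that rose, Zfp759 went from 9.05, 11.6 and 9.97 CPM to 13.2, 15.1 and 13.8 (log2 fold change 0.46 ± 0.10). Zfp213 went from 6.17, 6.61 and 6.37 CPM to 8.72, 8.40 and 8.98 (0.45 ± 0.10). Zfp213 shares 747 exonic bases with another gene of the table on the opposite strand, and since the strand setting of the counting is not given in the sources used here, reads of the pair cannot be told apart. Zfp719 (log2 fold change 0.30), Zfp945 (0.32), Zfp938 (0.27), Zfp799 (0.31), Zfp930 (0.21), Zfp617 (0.28) and Zfp869 (0.17) also rose. They carry the KRAB signature, and their libraries did not overlap between the groups. Zfp617 had 45.5, 45.5 and 43.1 CPM against 49.6, 57.6 and 55.8, but 41.5% of its 50-base words occur in another gene, as do 9.35% of those of Zfp869. Zfp869 had 109, 109 and 107 CPM in control and 121, 122 and 121 CPM in D-serine libraries.

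Zfp598 had the smallest p of all members. It encodes a ubiquitin ligase that marks small ribosomal subunits where ribosomes collide. Its level was 160, 155 and 154 CPM in control and 133, 135 and 132 CPM in D-serine libraries, a log2 fold change of -0.23 ± 0.042 (adjusted p = 0.011). The groups did not overlap, and with 17 of 19 alternative settings the call held.

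Zfp609, a protein that binds the cohesin loader Nipbl and the Integrator complex, had 136, 134 and 132 CPM in control and 94.0, 123 and 116 CPM in D-serine libraries (log2 fold change -0.27 ± 0.076, adjusted p = 0.039). D-serine library 1 was the lowest by a wide margin. Zfp740 went from 105, 103 and 108 CPM to 94.0, 94.1 and 87.6 (-0.20 ± 0.048, adjusted p = 0.025). Zfp251 went from 24.4, 26.8 and 25.3 CPM to 22.2, 21.9 and 21.3 (-0.23 ± 0.066, adjusted p = 0.046). The 4 members that fell lacked a KRAB signature, and none of them lies in a cluster.

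Members were next split by a KRAB A-box signature, a score of at least 6 of 8 positions around the central tryptophan in any translated transcript. A member with no match is not thereby without the domain. Of 117 members with the signature, 93 were above 0 (median log2 fold change 0.11), and 14 rose while 0 fell by the edgeR test (4 lower at an unadjusted p under 0.05, and 0 fell by DESeq2). With the length trend removed 21 of the 117 rose and 2 fell, and with no filter on low counts 18 rose and 1 fell. Of all tested genes 701 rose and 1417 fell with the length trend removed. With no filter 880 of 17635 tested genes rose and 987 fell. With the replicate number added as a block, 2 fell with the length trend removed. In that design 1 fell when the trend was recentred, and 1 when it was removed together with the GC trend. Of 118 without the signature, 55 were above 0, 6 rose (5.1%) and 4 fell (3.39%), near the shares of all tested genes. Their median was -0.011. It turned positive (up to 0.025) under upper quartile scaling, library totals, the recentred length trend, and the length and GC trends together. It was also positive without D-serine 1 or control 1. Zfp939, with no coding sequence found, is in neither set. The split was made, and the score adopted, after fold changes of members had been seen. A stricter pattern used first, in which every position had to match, found 103 members with a median of 0.13, of which 86 were above 0 and 12 rose, and left 132 with a median of -0.0050, of which 62 were above 0, 8 rose and 4 fell. The 14 members that the score added had a median of 0.0087, and 2 of them rose, Zfp213 and Zfp869.

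**Figure D2:**
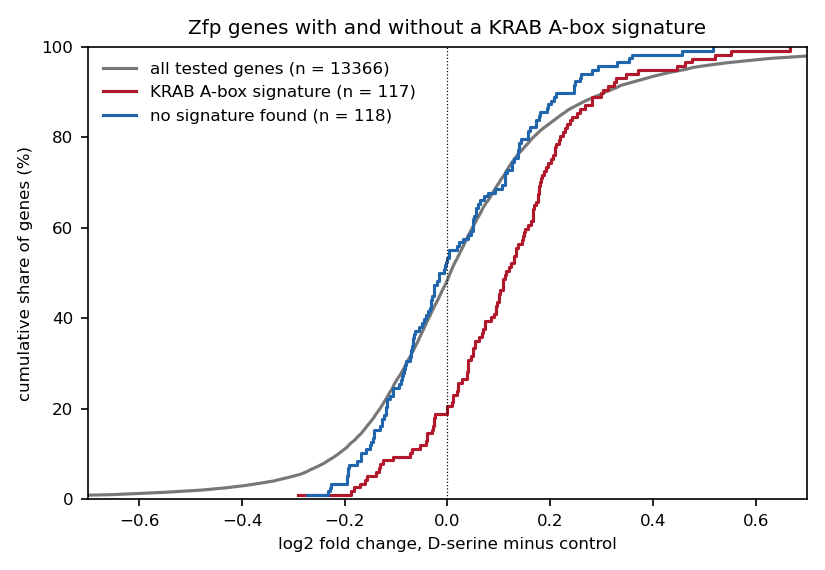
Cumulative share of genes (%) against log2 fold change, D-serine minus control, for 117 Zfp genes with a KRAB A-box signature (red), 118 without (blue) and all 13366 tested genes (grey; values beyond the axis are not shown). The red curve lies to the right around its median of 0.11, and the blue curve has its median at -0.011.

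The sets with and without the signature also differed in other measures. The median GC content of transcripts was 41.5% with it and 50.3% without, beside 50.1% over all tested genes. The median level was 14.3 CPM against 35.8 CPM, and the median number of fingers 12 against 7.5. Among 1673 other tested genes with length, level and GC content between the 10th and 90th percentiles of the KRAB members, the median was 0.027 and 9.21% were called, 6.93% higher and 2.27% lower. The part of GC content and level in the difference between the sets was not tested. With each library's GC trend removed, an alternative added after seeing the data, the median with the signature was 0.091 and 9 members rose.

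Fold changes also varied with level among members. When members were put in 4 sets of 59 by mean CPM, 49 in the lowest set were above 0 and the median was 0.14. In the next set 45 were above 0 (0.13), in the one after it 34 (0.050) and in the highest 21 (-0.042). The calls did not follow the medians, since 4, 2, 9 and 5 members rose by edgeR in these sets. These were 6.78%, 3.39%, 15.25% and 8.475%, beside 4.84% of all tested genes. In the same order 0, 0, 1 and 3 fell, beside 4.9% of all tested genes. At an unadjusted p under 0.05, 0 and 1 were lower in the lowest pair of sets, and 0 fell there by DESeq2. How readily genes of each level are called was not tested.

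**Figure D3:**
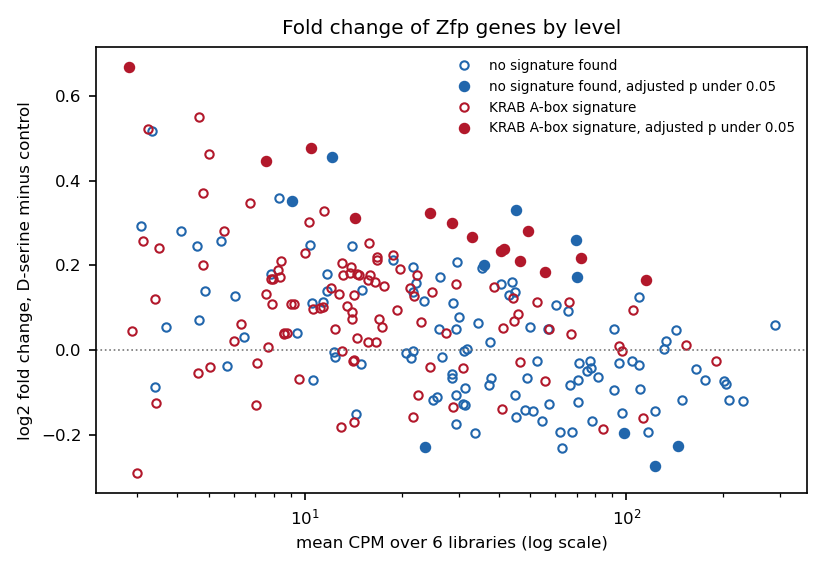
Log2 fold change, D-serine minus control, of each Zfp gene against its mean CPM over 6 libraries (log axis), coloured by KRAB A-box signature and filled where the adjusted p was under 0.05. Zfp genes with the signature (red) sit mostly above 0 and at lower levels, and the 4 filled points below 0 are Zfp609, Zfp251, Zfp598 and Zfp740, all without it.

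Each library was also described by the median deviation of its log2 CPM from the mean of each gene over 6 libraries. For members with the signature it was -0.040, -0.038 and -0.11 in control libraries 1 to 3 and 0.0010, 0.089 and 0.078 in D-serine libraries 1 to 3. The groups did not overlap, but D-serine 1 lay nearer to controls 1 and 2 than to the other D-serine libraries. For members without the signature the values were 0.055, -0.0061 and -0.025 in control and -0.045, 0.028 and 0.0014 in D-serine libraries, so the groups overlapped. D-serine 1 also stood apart in its dependence on gene length, with a slope of log2 deviation on log2 length of -0.072, beside -0.0040 to 0.036 in the other libraries. Without D-serine 1 the median of members with the signature was 0.14 and 20 of them rose, and the median of those without was 0.014. Without D-serine 2 the median with the signature was 0.10 and 10 rose. Without D-serine 3, control 1, control 2 or control 3 none of them rose by the edgeR test, while 28, 31, 27 and 29 were higher at an unadjusted p under 0.05 and the medians lay between 0.092 and 0.13.

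**Figure D4:**
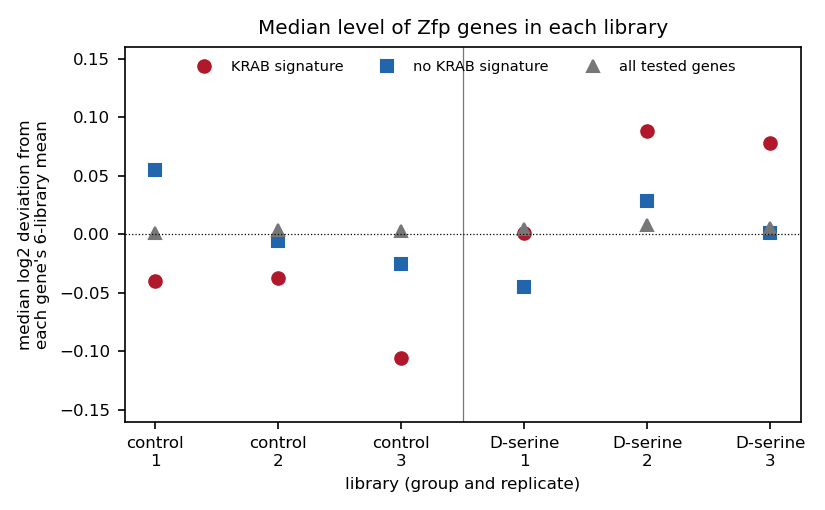
Median log2 deviation from each gene's mean over 6 libraries, for Zfp genes with the KRAB signature (circles), without it (squares) and all tested genes (triangles), in each library. Circles lie between -0.11 and -0.038 in control and between 0.0010 and 0.089 in D-serine libraries, while triangles stay between 0.0011 and 0.0076.

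Clusters were taken as runs of at least 4 members with gaps of at most 500 kb. There were 16, which held 103 members, 68 of them with the KRAB signature. In the clusters 82 of 103 members were above 0, 11 rose and 0 fell (5 lower at an unadjusted p under 0.05, and 0 fell by DESeq2), with a median log2 fold change of 0.12. The share called was 10.7%, near the 9.74% of all tested genes and the 10.5% of those of like length and level. Of all tested genes 4.84% rose and 4.9% fell. Without D-serine 3 or control 1 none of the 103 rose (23 and 28 were higher at an unadjusted p under 0.05), and 1 rose without control 2 or without control 3. With the length trend removed 16 rose and 3 fell. Of 133 members outside clusters 67 were above 0, 9 rose (6.77%) and 4 fell (3.01%), with a median of 0.011. Every member was above 0 in 7 clusters, and the median was above 0 in 15. Members of the clusters without the signature had a median of 0.11 (n = 35), and those with it outside clusters 0.10 (n = 49).

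**Figure D5:**
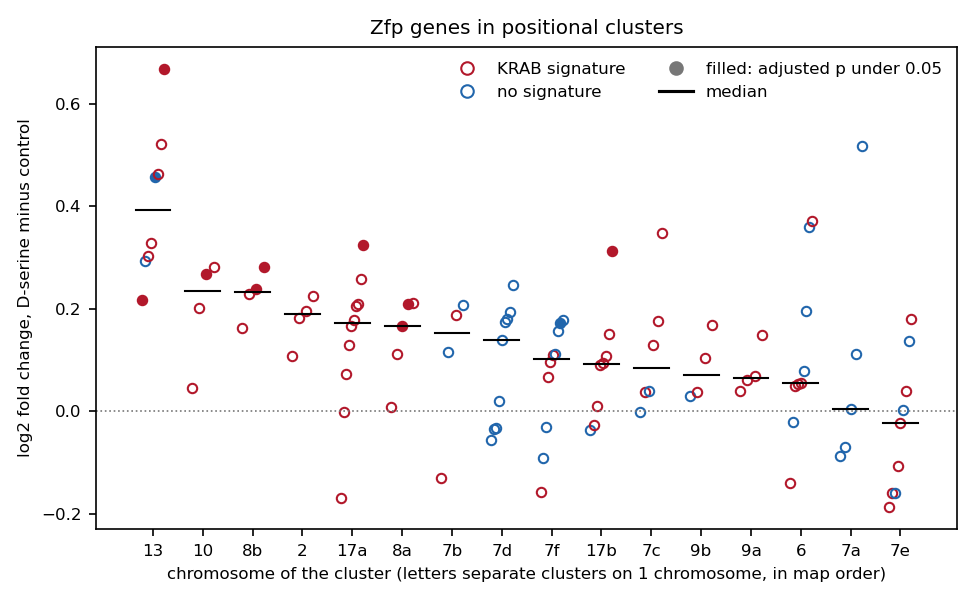
Log2 fold change, D-serine minus control, of Zfp genes in the 16 positional clusters, in order of the cluster median (black line). Red circles carry the KRAB signature, blue ones do not, and filled circles had an adjusted p under 0.05. The cluster on chromosome 13 has the highest median, 0.39, and a cluster on chromosome 7 the lowest, -0.024.

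The cluster on chromosome 13 held Zfp712, Zfp708, Zfp759, Zfp455, Zfp458, Zfp595, Zfp748 and Zfp738, between 67139530 and 67784449 in the coordinates of the deposited table. All 8 were above 0, from 0.22 in Zfp748 to 0.67 in Zfp595, also in every one of 19 alternative settings. Zfp595, Zfp759 and Zfp748 rose, 37.5% of the 8, beside 4.84% of all tested genes. The place of Zfp595 among the 8 depends on its rise, since it reached the minimum of counts through the D-serine libraries. In 6 of the 8 every D-serine library was above every control library, beside 16.2% of all tested genes. This cluster had the highest median of the 16. Zfp748, the most abundant of the 8, had 65.5, 70.3 and 64.1 CPM in control and 72.8, 78.6 and 81.0 CPM in D-serine libraries. Zfp712 had 2.51, 2.67 and 2.82 CPM against 3.06, 4.38 and 4.07, and Zfp455 4.15, 4.58 and 3.92 against 6.76, 6.12 and 4.59, each with an adjusted p of 0.077. Of 13 other tested genes in the span, 12 were above 0 and 1 was called. Most of these 13 carry Zfp symbols too. Zfp457, Zfp953, Zfp429 and Zfp459 have 3 digits and are outside only because they did not reach the minimum of counts. Zfp708 shares 94.9% of its 50-base words with another gene, Zfp455 10.1% and Zfp738 8.29%, so their counts are uncertain. Without D-serine 3, without control 1 and without control 3 none of the 8 was called (edgeR; 5, 6 and 7 of them had an unadjusted p under 0.05), and their median stayed between 0.35 and 0.39.

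Other clusters with called members were on chromosome 8, with Zfp617 and Zfp961 in one (median 0.23, n = 4) and Zfp869 and Zfp930 in the other (0.17, n = 5), on chromosome 10 with Zfp938 (0.23, n = 4), on chromosome 17 with Zfp945 (0.17, n = 10) and Zfp799 (0.093, n = 8), and on chromosome 7 with Zfp553 (0.10, n = 10). The cluster with the lowest median, on chromosome 7, held Zfp382 (-0.19) and Zfp568 (-0.16), a repressor of a placental Igf2 transcript, neither past the threshold (adjusted p = 0.13 each). Both were lowest in D-serine 1, at 67.2 and 93.7 CPM against 84.2 or more and 112 or more in all other libraries.

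Since Zfp595, Zfp748 and Zfp759 rose in the same cluster, their promoters are shown, from 250 bases before to 50 after the start in RefSeq GRCm38.p6, at chr13:67332511-67332810 (minus strand), chr13:67553103-67553402 (minus strand) and chr13:67127978-67128277 (plus strand). Capitals mark matches to the motifs searched, a cyclic AMP response element (TGACGTCA) in Zfp595 and an ETS core (CCGGAAG) in Zfp759. The window of Zfp748 held none of the motifs searched.
Zfp595: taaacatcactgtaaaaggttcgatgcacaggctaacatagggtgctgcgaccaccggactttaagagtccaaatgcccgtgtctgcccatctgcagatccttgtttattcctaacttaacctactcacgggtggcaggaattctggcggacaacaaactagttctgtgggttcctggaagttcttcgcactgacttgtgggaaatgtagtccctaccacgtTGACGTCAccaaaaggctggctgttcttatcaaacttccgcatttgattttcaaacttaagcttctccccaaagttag
Zfp748: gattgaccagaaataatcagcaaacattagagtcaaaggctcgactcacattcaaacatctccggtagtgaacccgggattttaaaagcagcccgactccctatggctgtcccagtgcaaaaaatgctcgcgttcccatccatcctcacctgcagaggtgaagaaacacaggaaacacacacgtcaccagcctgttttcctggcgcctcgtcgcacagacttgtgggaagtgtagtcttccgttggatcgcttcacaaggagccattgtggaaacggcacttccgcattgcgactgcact
Zfp759: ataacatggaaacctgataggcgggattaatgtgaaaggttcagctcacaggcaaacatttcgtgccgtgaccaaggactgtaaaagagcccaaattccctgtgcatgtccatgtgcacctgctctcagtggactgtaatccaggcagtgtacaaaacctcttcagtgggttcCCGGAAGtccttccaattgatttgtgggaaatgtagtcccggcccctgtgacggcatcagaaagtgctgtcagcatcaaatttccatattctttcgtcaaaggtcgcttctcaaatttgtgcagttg
Promoters of 199 members were found, and motifs were searched on both strands. The ETS core was in 20.1% of them, beside 9.12% of all 27025 promoters but 20% of 8409 promoters of genes that reached the same minimum of counts, a background added after the first had been seen. The cyclic AMP response element was in 3.02%, beside 1.88% and 3.62%. A TATA box (TATAAA) was in 6.03%, beside 14.2% and 5.99%. The element TGATGNAA, bound by ATF4 with a CEBP partner, was in 0 of 199, beside 4.06% and 2.18%. These letters are a description of the window and not sites of binding.

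The 11 members listed for ribosome, translation and RNA held 1 that rose, Zfp326, and 1 that fell, Zfp598. Each was 9.09% of the 11, beside 4.84% of all tested genes that rose and 4.9% that fell. Zfp593, a factor of large-subunit ribosome assembly, had 12.5, 12.6 and 13.2 CPM in control and 14.9, 14.2 and 16.3 CPM in D-serine libraries, with no overlap and an adjusted p of 0.076. Zfp622 had 202, 204 and 211 CPM against 200, 193 and 194 (adjusted p = 0.28). The median of the 11 was -0.067, with 5 above 0.

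Of 17 members listed as DNA-binding factors without KRAB, 0 were called by edgeR and 0 by DESeq2, and 6 were lower at an unadjusted p under 0.05. By edgeR 9.74% of all tested genes were called. With the length trend removed 4 fell, when recentred 2, and 1 fell with no filter on low counts, with the length and GC trends removed, without D-serine 1 and without D-serine 2. The median was -0.093 with 14 below 0. Zfp143, a factor of many promoters including those of small nuclear RNA genes, had the smallest p of them, with 38.7, 34.6 and 34.6 CPM against 29.9, 30.5 and 33.7 (log2 fold change -0.20 ± 0.069, adjusted p = 0.085). Zfp384 (-0.18), Zfp362 (-0.14) and Zfp335 (-0.17) were also lower with no overlap between groups, and Zfp770 (0.13) was higher with none.

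Of 9 members listed for chromatin complexes and SUMO, 8 were below 0 with a median of -0.13, and Zfp609 fell. It was 11.1% of the 9, beside 4.9% of all tested genes that fell. Zfp592, a partner of the chromatin reader Zmynd8, had 65.9, 67.6 and 65.4 CPM against 53.3, 61.7 and 58.9 (log2 fold change -0.19 ± 0.058, adjusted p = 0.052). D-serine 1 was again the lowest library. Without it the medians were -0.030 for the chromatin members and -0.056 for the factors without KRAB. With the length trend removed they were -0.069 and -0.062, or -0.042 and -0.036 when recentred to keep the scaling.

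Of 11 KRAB members with a described target, Zfp316 and Zfp961 rose (18.2%, beside 4.84% of all tested genes). Zfp316 had 35.5, 40.1 and 36.5 CPM against 43.0, 43.3 and 45.6 (log2 fold change 0.23 ± 0.061, adjusted p = 0.032). Zfp961, which binds a retroviral primer binding site, had 38.6, 40.6 and 34.95 CPM against 44.7, 43.7 and 46.2 (0.24 ± 0.063, adjusted p = 0.034). Zfp809, which binds another such site, had 9.67, 8.95 and 6.82 CPM against 7.83, 9.25 and 8.98, and Zfp445, which maintains imprints, 198, 194 and 181 against 167, 199 and 197. Both overlapped between groups (adjusted p = 0.89 and 0.82).

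Of 32 tested genes of the KRAB corepressor machinery 26 were below 0 with a median of -0.062, and Trim28, Atf7ip and Dnmt3a fell while 0 rose (edgeR; 0 were higher at an unadjusted p under 0.05, and 0 rose by DESeq2). The share called was 9.4% of the 32, near the 9.74% of all tested genes called in either direction, of which 4.9% fell and 4.84% rose. Under upper quartile scaling or library totals, which shift all tested genes upward to medians of 0.035, 19 were below 0 and 1 fell. Without D-serine 3 or any 1 of the controls none of the 32 was called (edgeR; 9, 7, 6 and 8 had an unadjusted p under 0.05). Trim28 had 658, 659 and 675 CPM in control and 617, 578 and 613 CPM in D-serine libraries, a log2 fold change of -0.14 ± 0.040 (adjusted p = 0.046), and was past the threshold in 10 of 19 alternative fits. Setdb1 had 118, 113 and 112 CPM against 105, 110 and 105 (-0.099 ± 0.046, adjusted p = 0.17). Of 42 tested regulators with zinc fingers outside the Zfp symbols, 7 fell and 0 rose (edgeR; 5 were higher at an unadjusted p under 0.05, and 0 rose by DESeq2). The 7 that fell were 16.7% of the 42, beside 4.9% of all tested genes. The 6 with the smallest p were Zbtb7a, Yy1, Egr1, Hic2, Plagl2 and Casz1. With the length trend removed 3 of the 42 rose, and 4 rose when it was recentred or removed together with the GC trend, with 7 lower in each. Without D-serine 3, control 1, control 2 and control 3 the number that fell was 2, 1, 1 and 4. The 42 were listed from general knowledge, and families taken by symbol went otherwise. Of 50 tested Zfp genes with 1 or 2 digits 37 were above 0 (median 0.093). By edgeR 4 of them rose (8%) and 0 fell, with 1 lower at an unadjusted p under 0.05. Of 19 Zkscan and Zscan genes 14 were above 0 (0.13) and 1 rose (5.26%). Of 40 Zbtb genes 21 were above 0 (0.0041), 2 rose (5%) and 3 fell (7.5%).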

How the data were processed

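Poly(A) RNA of 3 control and 3 D-serine libraries was measured. The authors deposited raw counts per gene with summed exon lengths, per the file headers. The submitters' processing notes name bcl2fastq, Trim Galore, HISAT2, featureCounts, Subread and DESeq2, and the builds GRCm38 and mm10. However, 5 of 234 members matched in RefSeq GRCm38.p6 share its start, so the table's coordinates are printed as deposited, from a build it does not name. Whether counting used strand, and how multi-mapping reads were treated, is not given in the sources used here.

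The counts were fitted over all 13366 genes kept by filterByExpr with edgeR 4.0.16 in R 4.3.3 (TMM scaling, quasi-likelihood F test, two-sided, Benjamini-Hochberg over all tested genes, threshold 0.05). The standard error is the size of the log2 fold change divided by the square root of F, and CPM uses TMM-adjusted library sizes. Rose and fell mean past the threshold. Total counts were 32518483 to 40024265 per library, and the common biological coefficient of variation between libraries was 5.77%.

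Alternatives were DESeq2 1.42.0, other scalings, no filter, the replicate number as a block, removal of length trends (spline with 5 degrees of freedom), each library left out, other minimum counts and exclusion of members that share exons. The removal of GC trends, the recentred length trend and the exclusion of members that share sequence were added after seeing the data. GC content covered 96.2% of tested genes.

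The members, lists and tests were chosen with earlier results of these data known. The KRAB split and its score, the sets by level, the genes of like length, level and GC content as KRAB members, the motifs and the genes whose sequences are printed were chosen after fold changes of members had been seen. Named genes were, by rule, members past the threshold (of those higher, the 12 with the smallest p), the 4 highest by CPM and by CPM per kilobase, the 3 nearest the minimum on each side, members of 4 role lists and of clusters, and Trim28, Setdb1 and called genes of the partner lists (at most 6 a list). Not every gene the rule picks is reported.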

Additional observations from a re-analysis of the deposited data

How the results depend on the processing

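Whether same-numbered libraries were paired is not given in the labels. Their deviations correlated at -0.069, 0.020 and -0.019, and 1 of 6 libraries correlated best with its own number. No shared deviation was thus seen, but 3 libraries a group are too few to settle the pairing. With the replicate block 6 members passed the threshold, 5 higher and 1 lower, of which 2 with the KRAB signature and 1 in a cluster rose, and 0 of 32 corepressor genes passed (7 had an unadjusted p under 0.05). Beside 24 members (20 higher and 4 lower), removal of the length trend gave 41 (14 lower), and 34 with the replicate block (11 lower). The recentred length trend, added after that result was seen, gave 47 (41 higher), and 44 with the replicate block (39 higher). In these fits 2118, 1887, 2043 and 1900 of 13366 tested genes passed, against 1302 without trend removal and 298 with the replicate block. Members lower numbered 7 with DESeq2, 2 with library totals, 9 with no filter on low counts and 7 with the length and GC trends removed, which with the replicate block gave 30 (24 higher and 6 lower). Leaving out 1 library gave between 0 and 32 members past the threshold, 0 to 27 higher and 0 to 6 lower. No named member past the threshold reversed its sign in any of the 19 alternative fits, but each of the 24 missed the threshold in some of them, with 6 to 17 fits past it, and Zfp637 missed it in every fit without 1 library. The median of members with the KRAB signature ran from 0.091 to 0.15 over these fits. With a minimum of 300 or 1200 counts 24 and 23 members passed, and without members that share exons or sequence 23 and 21. The cause of these changes was not tested.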
